A study of Homo sapiens with 12 samples.

Results

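The meiotic chromosome axis and recombination genes studied here are 38 genes whose proteins build meiotic chromosomes or make and repair the programmed DNA breaks of meiosis, many of them working beside HORMAD1 in germ cells. They were taken from a fixed list of symbols, and all 38 were matched by gene identifier among 61533 gene entries. Their polyadenylated RNA was measured by RNA sequencing in HMLE, a human breast epithelial line that telomerase and SV40 antigens keep dividing. Per the labels, 4 lines were derived from it and selected with puromycin: the HORMAD1 line, the line carrying both HORMAD1 and CT83 (the double line), the CT83 line, and a control line. Sequencing gave 3 replicate libraries for each line and 12 in total, with no further treatment. The question addressed here is which of these genes are silent and which are expressed in a mammary epithelial cell, with and without HORMAD1.

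In germ cells HORMAD1 and its paralogue HORMAD2 coat the axis of each chromosome, to which REC8-type cohesin, SYCP2 and SYCP3 also belong. The axis carries the machinery by which SPO11 cuts DNA, and recombinases, DMC1 among them, then use the homologous chromosome as repair template. SYCP1 and the SYCE proteins zip the homologues together as the synaptonemal complex, MSH4, MSH5 and MLH3 help to turn some exchanges into crossovers, and the ATPase TRIP13 strips the HORMAD proteins from the axis. In somatic cells most of these genes are kept off, and HORMAD1 is called a cancer/testis gene because tumours can switch it on.

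The libraries held 9898845 to 14159740 counts after rounding. The labels do not say whether replicates were separate cultures, so each p-value reflects no more than how these libraries varied, which may be technical variation, and with 1 line per construct an effect of HORMAD1 cannot be told apart from a difference between lines. All 10 mammary epithelial markers listed passed the filter on low counts, against 1 of 21 germ cell markers (ZP3), and 11 germ cell markers were at 0 in every library, DAZL and PIWIL1 among them. Of 8 fibroblast markers listed, 4 passed (COL1A1, COL3A1, FAP and PDGFRB). COL1A2 did not pass, with 224 of its 241 counts in control replicate 3. In 3 libraries (control replicate 2, CT83 replicate 3 and HORMAD1 replicate 1) levels rose most steeply with transcript length, by 0.021 to 0.046 log2 units per doubling of length relative to the mean of all libraries, against -0.034 to 0.004 in the other 9. Results below were also computed without these 3.

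HORMAD1 (ENSG00000143452.16, chromosome 1, 150698060 to 150720888, minus strand of GRCh38) followed the labels in every library. In the HORMAD1 line it stood at 203, 332 and 335 CPM (counts relative to the library's total, on the usual scale of that name, after correction by scaling factors), and the double line had 283, 313 and 347 CPM. It had a count of 0 in all CT83 and all control libraries, where the floor of 3 counts is 0.225 to 0.288 CPM. Per length, its level was 84.3 to 144 FPKM (CPM per kilobase of exon) in the 6 libraries that carried it. That was 384% ± 56.1 of the level of TRIP13, the ATPase that acts on its protein (SD, n = 6 libraries of 2 lines). The length used was that of the annotated exons, 2405 bases. The transcript length of the construct was not known here, so both per-length values are uncertain.

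Of the 38 genes, 13 passed the filter (about 0.866 CPM in 3 or more libraries) and are called expressed here. Another 11 had 4 to 59 counts summed over the 12 libraries and are called trace, and 14 had at most 3 counts and are called silent. The silent group held 8 genes with a count of 0 everywhere and 6 with 1 to 3 counts in all. Among the 8 were MSH5, TEX12 and MND1, whose counts of 0 may not mean silence, as described below. Every role had at least 1 gene that did not pass, and all 3 genes for attaching telomeres to the nuclear envelope failed to pass. No silent gene had more than 2 counts over the 6 libraries with the HORMAD1 construct. The 14 silent genes together had 3 counts in the 6 libraries with the HORMAD1 construct and 10 counts in the 6 without it, out of 69390014 and 70083495 counts. The 11 trace genes had 118 counts with the construct and 116 without, or 1.7 and 1.66 CPM. A gene with a count of 0 over the 6 libraries with the construct is limited to 0.0432 CPM by counting error, so a lower level could have gone unseen.

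**Figure D1:**
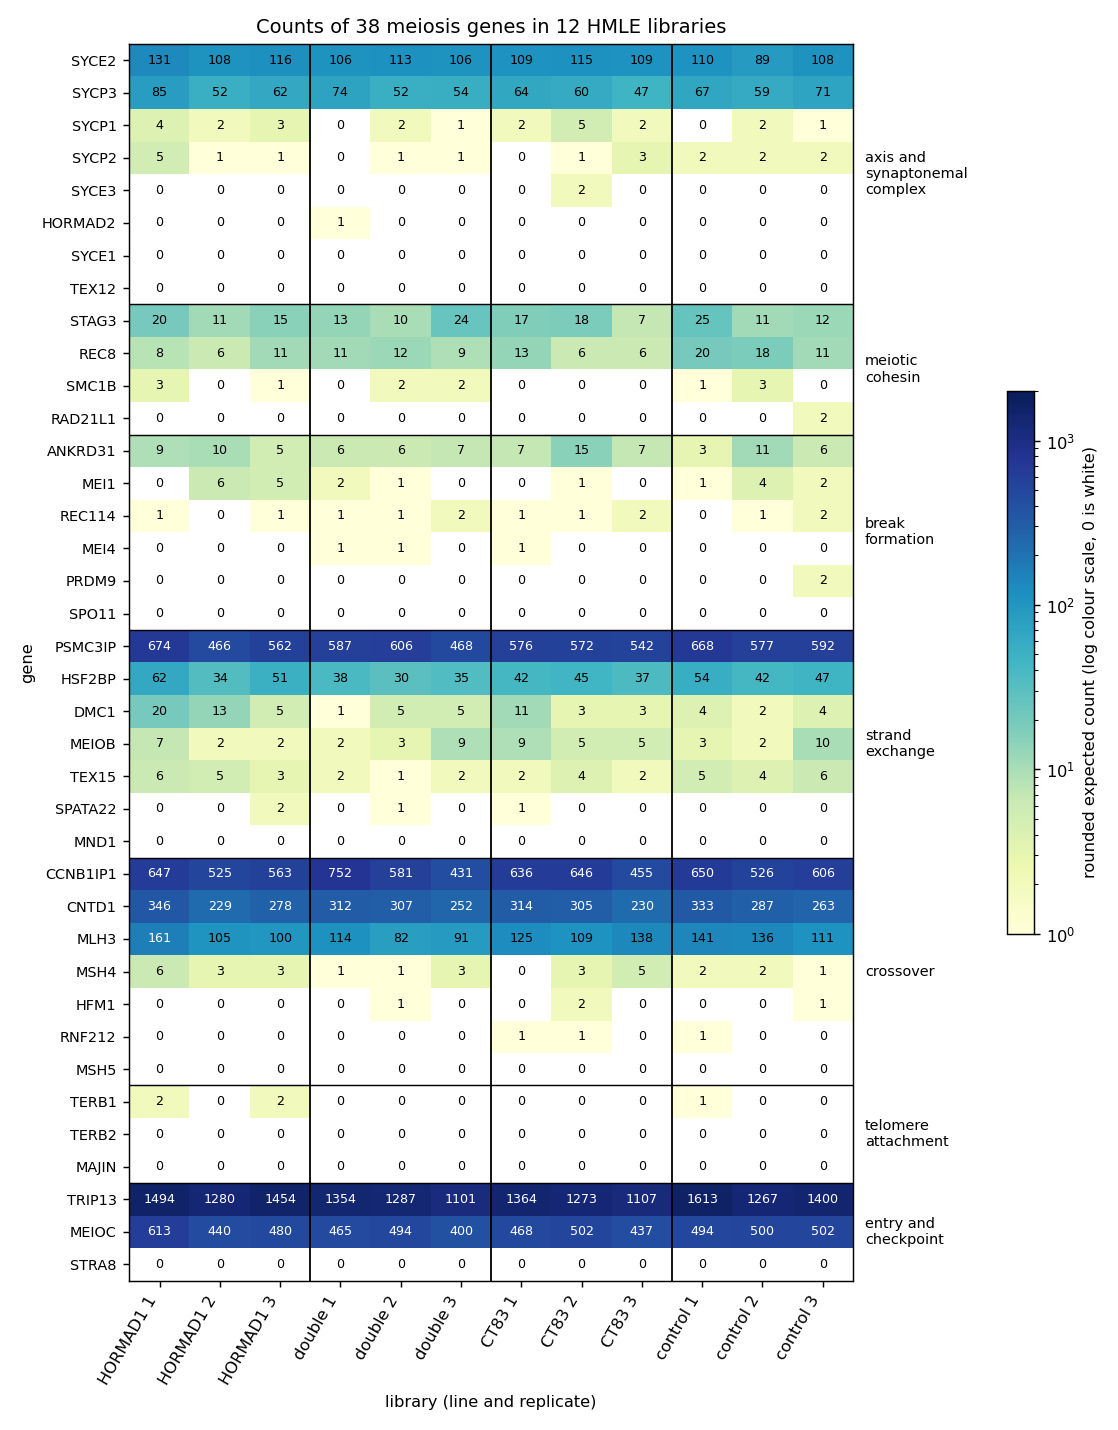
Rounded expected counts of the 38 genes (rows, by role) in the 12 libraries (columns: HORMAD1, double, CT83 and control lines, replicates 1 to 3), with a log colour scale and 0 in white. Silent rows such as SPO11 and STRA8 were at 0 in all 4 lines, and TRIP13 held 1101 to 1613 counts in every library.

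The promoters of these genes were read as a property that owes nothing to the counts. They are 300 bases (250 before and 50 after the start) of RefSeq, build GRCh38.p14, at the first start listed for each gene. Other starts were not searched. Some starts used, such as those of PRDM9 and SPATA22, lie well inside the gene as annotated for the counts. A promoter was found for 34 of the 38 genes, while TEX12, MEIOB, TEX15 and HSF2BP had none. These promoters were searched on both strands for GCGGGAA, the core of the site bound by E2F factors, and for the E-box CACGTG. E2F6, a repressing member of that family, is known to hold down germ cell genes in mouse somatic cells. The E2F core was in 14 of 34 promoters, 41.2%, against 8.6% of 15843 protein-coding promoters of the same length. It was in 3 of 12 promoters of expressed genes, 7 of 9 of trace genes and 4 of 13 of silent genes, and no test was made of these counts. The silent class, here and for the CG counts below, includes MSH5, with a match, and MND1, without one. Their counts of 0 may not mean silence, as described below. Of the 15 matches, 11 were centred within 100 bases of the start. An E-box was in 1 of the 34 (STAG3), against 8.88% of all promoters. The number of CG dinucleotides had a median of 27.5 in promoters of expressed genes, 23 in trace and 27 in silent genes, against 22 in all protein-coding promoters. Silent and expressed genes were therefore close in this count, with STRA8 (0 CG, silent) and CCNB1IP1 (6 CG, expressed) lowest.

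Shown here are 5 promoters with the core, of 2 expressed genes, 2 trace genes and 1 silent gene, so that the same letters can be seen at each level of expression. They are written 5′ to 3′ on the strand of the gene, with E2F core matches in capitals (TTCCCGC where the match lies on the other strand).
SYCE2, expressed, chr19:12919244-12919543, minus strand: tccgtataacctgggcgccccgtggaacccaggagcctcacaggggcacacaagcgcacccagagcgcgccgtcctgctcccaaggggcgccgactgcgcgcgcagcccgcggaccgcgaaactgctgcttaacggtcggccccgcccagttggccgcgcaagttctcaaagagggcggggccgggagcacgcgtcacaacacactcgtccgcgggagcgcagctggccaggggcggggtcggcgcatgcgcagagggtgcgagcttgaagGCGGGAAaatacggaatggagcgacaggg
CNTD1, expressed, chr17:42798611-42798910, plus strand: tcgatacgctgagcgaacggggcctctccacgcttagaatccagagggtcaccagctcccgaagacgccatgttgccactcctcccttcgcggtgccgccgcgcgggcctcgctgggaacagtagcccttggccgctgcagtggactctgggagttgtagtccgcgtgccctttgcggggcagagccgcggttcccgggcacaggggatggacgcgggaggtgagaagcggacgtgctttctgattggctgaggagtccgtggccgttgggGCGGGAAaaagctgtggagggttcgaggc
SMC1B, trace, chr22:45413550-45413849, minus strand: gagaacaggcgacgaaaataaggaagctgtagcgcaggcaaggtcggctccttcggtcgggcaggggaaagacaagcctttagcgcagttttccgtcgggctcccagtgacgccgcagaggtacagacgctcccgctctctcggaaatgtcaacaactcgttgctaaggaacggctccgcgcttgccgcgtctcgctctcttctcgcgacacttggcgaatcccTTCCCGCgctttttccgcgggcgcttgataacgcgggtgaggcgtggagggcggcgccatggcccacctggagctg
SPATA22, trace, chr17:3471770-3472069, minus strand: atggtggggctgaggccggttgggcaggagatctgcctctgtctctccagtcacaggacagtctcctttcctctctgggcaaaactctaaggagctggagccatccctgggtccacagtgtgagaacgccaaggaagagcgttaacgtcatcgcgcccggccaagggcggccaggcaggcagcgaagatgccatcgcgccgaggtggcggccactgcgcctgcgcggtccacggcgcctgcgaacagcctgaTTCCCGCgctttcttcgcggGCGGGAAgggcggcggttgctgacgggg
SPO11, silent, chr20:57329553-57329852, plus strand: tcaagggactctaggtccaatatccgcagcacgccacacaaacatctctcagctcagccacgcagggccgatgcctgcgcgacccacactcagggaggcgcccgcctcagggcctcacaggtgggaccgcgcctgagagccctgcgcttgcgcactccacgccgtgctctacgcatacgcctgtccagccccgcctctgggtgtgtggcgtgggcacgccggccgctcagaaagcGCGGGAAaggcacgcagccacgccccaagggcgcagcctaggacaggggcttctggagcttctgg
The core lies at bases 22 to 28 after the start in both SYCE2 and CNTD1, at 26 to 20 bases before it in SMC1B and at 15 to 9 bases before it in SPO11. SPATA22 has 2 matches, both after its start. A match is a description of letters and does not show that a factor was bound in these cells.

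**Figure D2:**
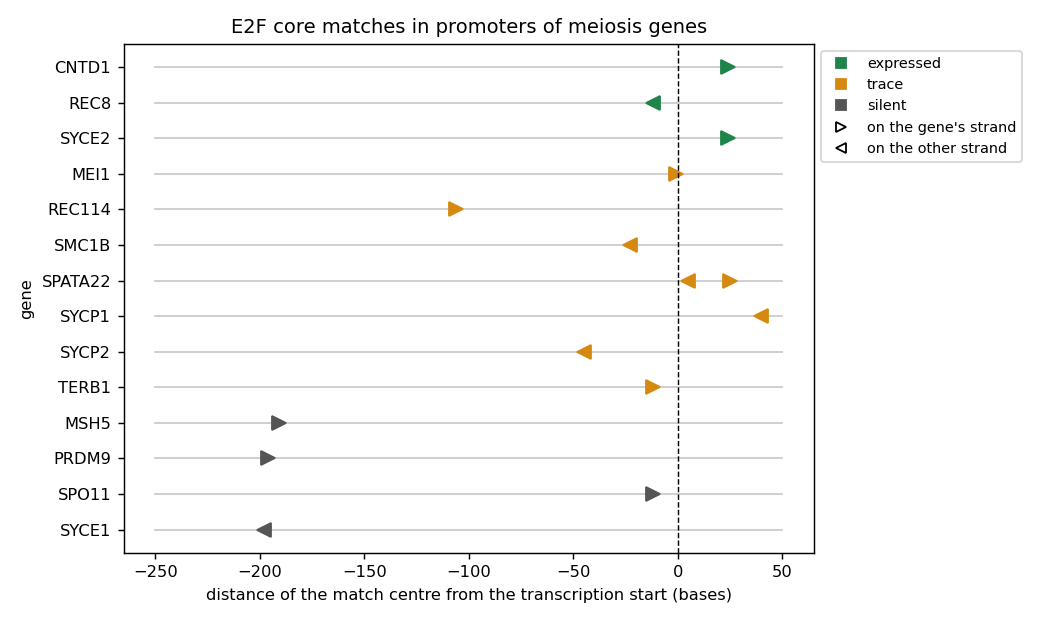
Position of each E2F core match (triangle, pointing right on the strand of the gene and left on the other) relative to the transcription start, in bases, for the 14 promoters that hold one, coloured by expression class. Of the 15 matches, 11 lie within 100 bases of the start, and they occur in all 3 classes.

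Among genes of the axis and the synaptonemal complex, 2 of 8 were expressed. SYCE2 (ENSG00000161860.8), a protein of the central element that zips homologues together, was at 8.83, 10.4 and 10.2 CPM in the HORMAD1 line, then 9.41, 9.91 and 10.7 CPM in the double line, 9.34, 9.94 and 10.4 CPM in the CT83 line, and 8.34, 7.78 and 9.1 CPM in the control line. The 3 control libraries lay at the low end, below all double and all CT83 libraries, while HORMAD1 replicate 1 lay among them. Ranges did not overlap with control for 15.4% of all genes in the double line and 10.5% in the CT83 line. SYCP3 (ENSG00000139351.15), which forms fibres of the axis, was at 5.73, 5.01 and 5.44 CPM in the HORMAD1 line, then 6.57, 4.56 and 5.44 CPM in the double line, 5.49, 5.19 and 4.49 CPM in the CT83 line, and 5.08, 5.16 and 5.98 CPM in the control line. Its lines overlapped throughout.

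The partners that give these proteins their place on meiotic chromosomes were nearly absent. SYCP2, which binds SYCP3, had 19 counts in all, 9 with the HORMAD1 construct and 10 without. SYCP1, the transverse filament, had 24 counts, 12 with the construct and 12 without. HORMAD2, the paralogue of HORMAD1, had 1 count in the 12 libraries, in double replicate 1. SYCE3 had 2 counts, both in CT83 replicate 2, and the central element genes SYCE1 and TEX12 were at 0.

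The meiotic cohesin subunits were expressed weakly or not at all. REC8 (ENSG00000100918.14), the cleavable ring subunit, was at 0.539, 0.579 and 0.965 CPM in the HORMAD1 line, then 0.976, 1.05 and 0.906 CPM in the double line, 1.11, 0.519 and 0.574 CPM in the CT83 line, and 1.52, 1.57 and 0.927 CPM in the control line. Control replicates 1 and 2 held the highest values, and control replicate 3 fell within the HORMAD1 range. STAG3, the subunit that holds REC8 on the axis, was at 1.35, 1.06 and 1.32 CPM in the HORMAD1 line, then 1.15, 0.877 and 2.42 CPM in the double line, 1.46, 1.56 and 0.669 CPM in the CT83 line, and 1.9, 0.962 and 1.01 CPM in the control line. All 4 lines overlapped for it, and it has partial copies elsewhere in the genome that could share its reads. SMC1B had 12 counts in all, 8 with the construct and 4 without, and RAD21L1 had 2, both in control replicate 3.

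Per length, each meiotic form stood far below the gene that does the like work in dividing cells. REC8 averaged 0.244 FPKM, 0.247% ± 0.0928 of the 98.5 FPKM of RAD21, the mitotic ring subunit (SD, n = 12 libraries of 4 lines, as below). RAD21L1 was at 0.00504% ± 0.0175 of RAD21. SMC1B averaged 0.11% ± 0.125 of SMC1A, the mitotic core subunit of cohesin. STAG3 reached 1.1% ± 0.398 of STAG2. MLH3, which serves mismatch repair as well as meiosis, was the exception among those compared, at 35.6% ± 4.21 of PMS2. PMS2 has near-identical pseudogenes, so its own level is uncertain.

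**Figure D3:**
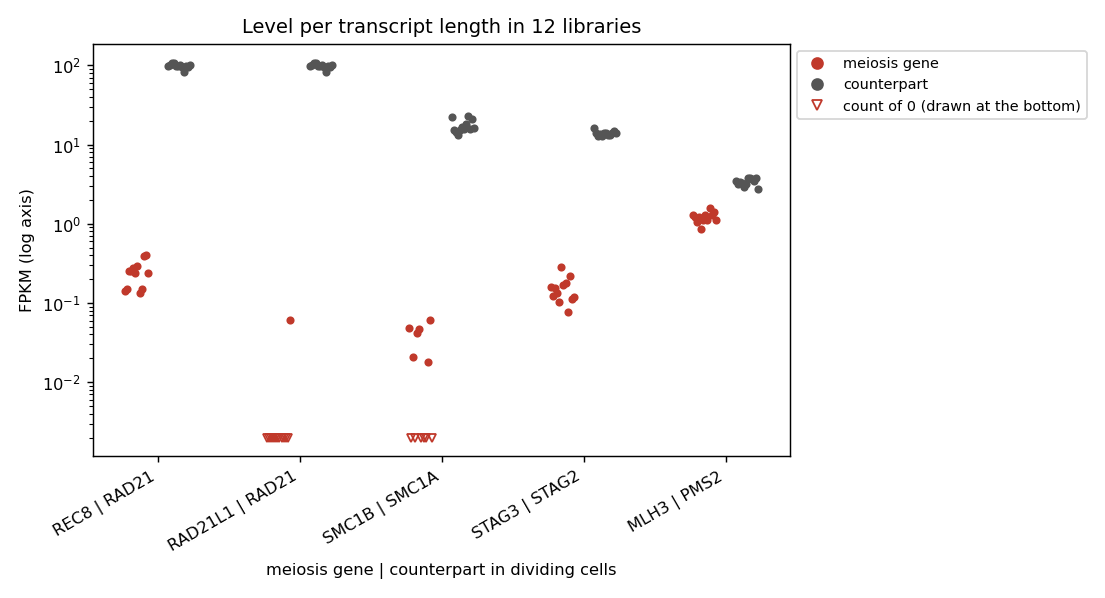
Level per exon length (FPKM, log axis) of 5 meiosis genes (red) and of the related gene used in dividing cells (grey), with 1 point per library over all 12. Open triangles at the bottom are counts of 0; MLH3, at 29.2 to 42.7% of PMS2, is the pair with the smallest gap.

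Of 6 genes for making the breaks, 1 was expressed. SPO11, the enzyme that cuts, was at 0 in every library. Of its accessory factors, MEI4 had 3 counts, REC114 13 and MEI1 22. PRDM9, the methyltransferase that chooses where breaks fall, had 2 counts, both in control replicate 3. The scaffold ANKRD31 alone passed the filter, in 3 libraries of 3 different lines. It was at 0.607, 0.964 and 0.439 CPM in the HORMAD1 line, then 0.532, 0.526 and 0.705 CPM in the double line, 0.6, 1.3 and 0.669 CPM in the CT83 line, and 0.228, 0.962 and 0.506 CPM in the control line, with all lines overlapping.

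Strand exchange held genes at both ends of the range. PSMC3IP (HOP2, ENSG00000131470.15, chromosome 17), which helps DMC1 filaments to pair with the homologue, was at 45.4, 44.9 and 49.3 CPM in the HORMAD1 line, then 52.1, 53.1 and 47.1 CPM in the double line, 49.4, 49.4 and 51.8 CPM in the CT83 line, and 50.7, 50.4 and 49.9 CPM in the control line. The HORMAD1 libraries lay just under the controls, and double replicate 3 lay among them. Ranges of the HORMAD1 and control lines did not overlap for 7.56% of all genes. HSF2BP, which helps to bring recombinases to breaks in mouse germ cells, was at 4.18, 3.28 and 4.48 CPM in the HORMAD1 line, then 3.37, 2.63 and 3.52 CPM in the double line, 3.6, 3.89 and 3.54 CPM in the CT83 line, and 4.1, 3.67 and 3.96 CPM in the control line. Double libraries were the lowest for it, except that HORMAD1 replicate 2 lay among them. Ranges of the double line did not overlap with control for 15.4% of all genes, and with the CT83 line for 17.9%.

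DMC1, the recombinase used only in meiosis, had the widest relative spread of the 13 expressed genes, with a coefficient of variation of 78.7% over 12 libraries. Its counts were 20, 13 and 5 in the HORMAD1 line, 1, 5 and 5 in the double line, 11, 3 and 3 in the CT83 line, and 4, 2 and 4 in the control line. In CPM it stood at 1.35, 1.25 and 0.439 in the HORMAD1 line, at 0.0887, 0.438 and 0.503 in the double line, at 0.943, 0.259 and 0.287 in the CT83 line, and at 0.303, 0.175 and 0.337 in the control line. Only 3 libraries lifted it over the filter, 2 of the HORMAD1 line and 1 of the CT83 line, so its passing and its high values there are not independent. The other strand exchange genes were lower: MEIOB had 59 counts, TEX15 42 and SPATA22 4.

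A count of 0 could not be read as silence for every gene. MND1, the partner of PSMC3IP, was listed at 0 in all 12 libraries, as were MSH5 and TEX12. MSH5 shares 47.3% of its exon length with the readthrough gene MSH5-SAPCD1 on the same strand, which was also at 0, and its deposited values before rounding summed to 0.2. TEX12 shares 24.8% with a same-strand gene (ENSG00000255292) that had 7487 counts. For MND1 the GENCODE 29 annotation shows no overlapping gene. In the same files the ribosomal protein genes RPL17 and RPS10, which every cell uses, were at 0 as well, with 32.7% and 39.4% of their exon length shared on the same strand. Both were chosen after their values were seen. Among protein-coding genes, 49% of those sharing 25% or more of their exon length on the same strand were at 0 in every library (638 of 1303), against 20.4% of those sharing less than that (423 of 2073) and 16.5% of those sharing none (2721 of 16478). TEX12, at 24.8%, falls in the middle class, MND1 among those sharing none, and SPATA22, at 26.6% and 4 counts, in the highest. On the opposite strand the largest shares among silent genes were 53.3% for SYCE1 (with CYP2E1) and 28.8% for STRA8 (with SLC23A4P). Zeros were not compared by opposite-strand overlap. The part of the authors' counting in the low counts of all these genes was not tested, so MSH5, TEX12 and MND1 are called listed at 0.

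Of the crossover genes, 3 of 7 were expressed. CCNB1IP1 (HEI10), a ubiquitin ligase-like protein that marks crossover sites, was at 43.6, 50.6 and 49.4 CPM in the HORMAD1 line, then 66.7, 50.9 and 43.4 CPM in the double line, 54.5, 55.8 and 43.5 CPM in the CT83 line, and 49.3, 46 and 51.1 CPM in the control line. Double replicate 1 was the highest library and double replicate 3 the lowest. CNTD1, a cyclin-like crossover regulator, was at 23.3, 22.1 and 24.4 CPM in the HORMAD1 line, then 27.7, 26.9 and 25.4 CPM in the double line, 26.9, 26.4 and 22 CPM in the CT83 line, and 25.3, 25.1 and 22.2 CPM in the control line. The double libraries were above all HORMAD1 and all control libraries. Ranges of the double and control lines did not overlap for 15.4% of all genes, and the share against the HORMAD1 line was not computed.

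MLH3 was at 10.9, 10.1 and 8.78 CPM in the HORMAD1 line, then 10.1, 7.19 and 9.16 CPM in the double line, 10.7, 9.42 and 13.2 CPM in the CT83 line, and 10.7, 11.9 and 9.35 CPM in the control line. Its 2 highest values were in CT83 replicate 3 and control replicate 2, which are 2 of the 3 libraries whose levels rose with transcript length, and the exon length of MLH3 is 8363 bases. The part of that trend in its values was not tested. MSH4 had 30 counts, 17 with the HORMAD1 construct and 13 without, the helicase HFM1 had 4, and the ligase-like RNF212 had 3, all in libraries without the construct.

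The genes of meiotic entry and checkpoint held the highest level of all 38. TRIP13 (ENSG00000071539.14, chromosome 5, 892643 to 919357, plus strand of GRCh38) was at 101, 123 and 128 CPM in the HORMAD1 line, then 120, 113 and 111 CPM in the double line, 117, 110 and 106 CPM in the CT83 line, and 122, 111 and 118 CPM in the control line. HORMAD1 replicate 1 was the lowest and HORMAD1 replicate 3 the highest library, so its level in that line enclosed the other 3 lines. TRIP13 also acts in the spindle checkpoint of dividing cells, and at 32.3 FPKM it stood above 92.9% of 19871 protein-coding genes. MEIOC, which sustains the meiotic programme in mouse germ cells, was at 41.3, 42.4 and 42.1 CPM in the HORMAD1 line, then 41.3, 43.3 and 40.3 CPM in the double line, 40.1, 43.4 and 41.8 CPM in the CT83 line, and 37.5, 43.7 and 42.3 CPM in the control line. Its spread was the smallest of the expressed genes, with a coefficient of variation of 4.19% over 12 libraries. STRA8, the switch of meiotic entry, was at 0 throughout. Of the telomere attachment genes, TERB1 had 5 counts, and TERB2 and MAJIN were at 0.

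**Figure D4:**
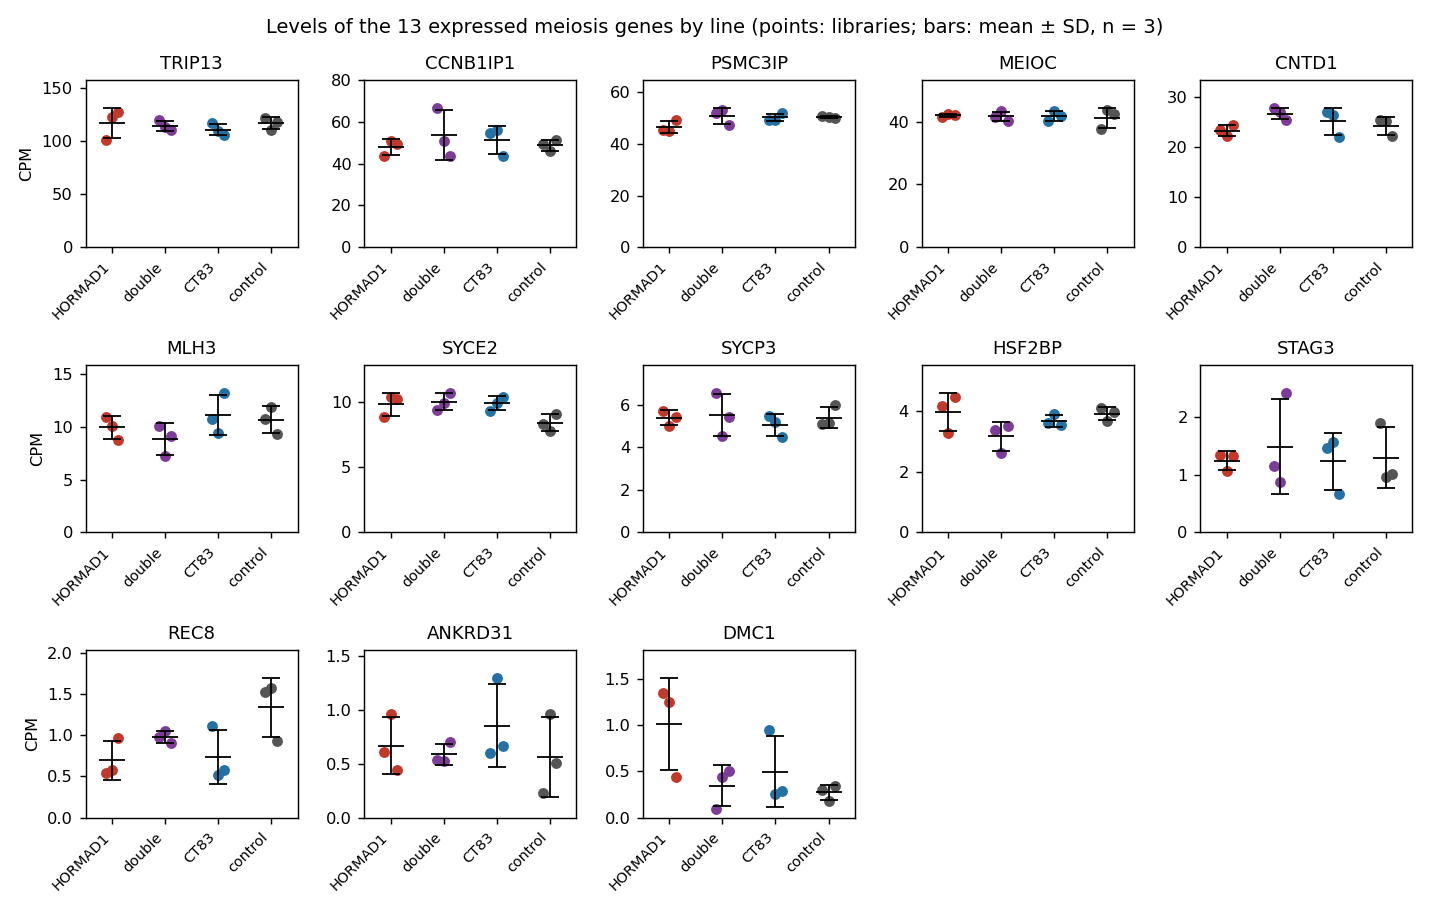
CPM of the 13 expressed genes in the HORMAD1, double, CT83 and control lines, with points for libraries and bars for mean ± SD (n = 3). The lines overlap for most genes; DMC1 had 2 HORMAD1 libraries at 1.35 and 1.25 CPM and the rest at 0.0887 to 0.943 CPM.

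In order of level per length, TRIP13 (32.3 ± 2.2 FPKM) led, followed by PSMC3IP (19.2 ± 0.986), CCNB1IP1 (13.7 ± 1.79), CNTD1 (7.34 ± 0.598), SYCE2 (6.54 ± 0.614) and MEIOC (4.84 ± 0.202 FPKM; SD, n = 12 libraries of 4 lines). HSF2BP (1.93 ± 0.254), SYCP3 (1.4 ± 0.151) and MLH3 (1.21 ± 0.185 FPKM) came next. REC8, STAG3, DMC1 and ANKRD31 lay between 0.107 and 0.244 FPKM, and the trace genes between 0.00493 and 0.185 FPKM. The neighbours CNTD1 and SYCE2, and SYCP3 and MLH3, differed by less than the sum of their SDs. Of the 13 expressed genes, 8 share exon sequence with a gene on the opposite strand, and the sources used here do not give whether counting used the strand. The exon length involved was 29.9% for PSMC3IP (with MLX), 24.1% for SYCE2 (with GCDH), 23.5% for CNTD1 (with BECN1), 14.8% for SYCP3 (with CHPT1) and 5.1% for TRIP13 (with BRD9). For STAG3 it was 13.6% (with CASTOR3P) and for REC8 1.0% (with IPO4). MEIOC shares 6.2% with CCDC43, and 21.2% with an antisense gene that had a count of 0. Reads of such partners may be counted in these genes, so their levels are uncertain. CCNB1IP1, MLH3, HSF2BP, DMC1 and ANKRD31 have no annotated exon overlap.

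Only the 13 meiosis genes that passed the filter were tested for a difference with HORMAD1, and the other 25 were not. The 6 libraries of the HORMAD1 and double lines were compared with the 6 of the CT83 and control lines in edgeR (quasi-likelihood test, p-values adjusted by Benjamini-Hochberg for 15616 genes). Of the 13 genes tested, 0 were called at an adjusted p under 0.05, where 0.0064% of all genes were called (1 gene, HORMAD1 itself). An unadjusted p under 0.05 was reached by 0 of the 13, against 3.73% of all genes. DESeq2 and limma-voom also called 0 of them. The median log2 fold change of the 13 was 0.02, with 8 above 0 and 5 below, against 0.003 over all genes; genes that passed the filter through a group in which they were high, such as DMC1, are included.

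The intervals of these differences show how large a change between these libraries could have been missed. Variation between lines of the same construct is not in them, so they do not bound an effect of HORMAD1. For TRIP13 the log2 fold change was 0.02 (SE 0.0645, 95% interval -0.11 to 0.16), and for MEIOC 0.01 (-0.12 to 0.14). PSMC3IP was at -0.05 (-0.17 to 0.08) and CCNB1IP1 at 0.02 (-0.19 to 0.23). Over the 9 genes above 3 CPM the bounds ran from -0.48 to 0.34. No gene of the 13 had ranges that did not overlap, against 0.0961% of all genes. The smallest p-values were those of MLH3 (log2 fold change -0.22, SE 0.123, edgeR adjusted p = 0.899), DMC1 (0.66, SE 0.495, adjusted p = 0.899) and SYCE2 (0.12, SE 0.0984, adjusted p = 0.899). For the 4 genes under 3 CPM the intervals were wide, with DMC1 at -0.4 to 1.71, ANKRD31 at -0.95 to 0.66, REC8 at -0.9 to 0.34 and STAG3 at -0.57 to 0.74.

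**Figure D5:**
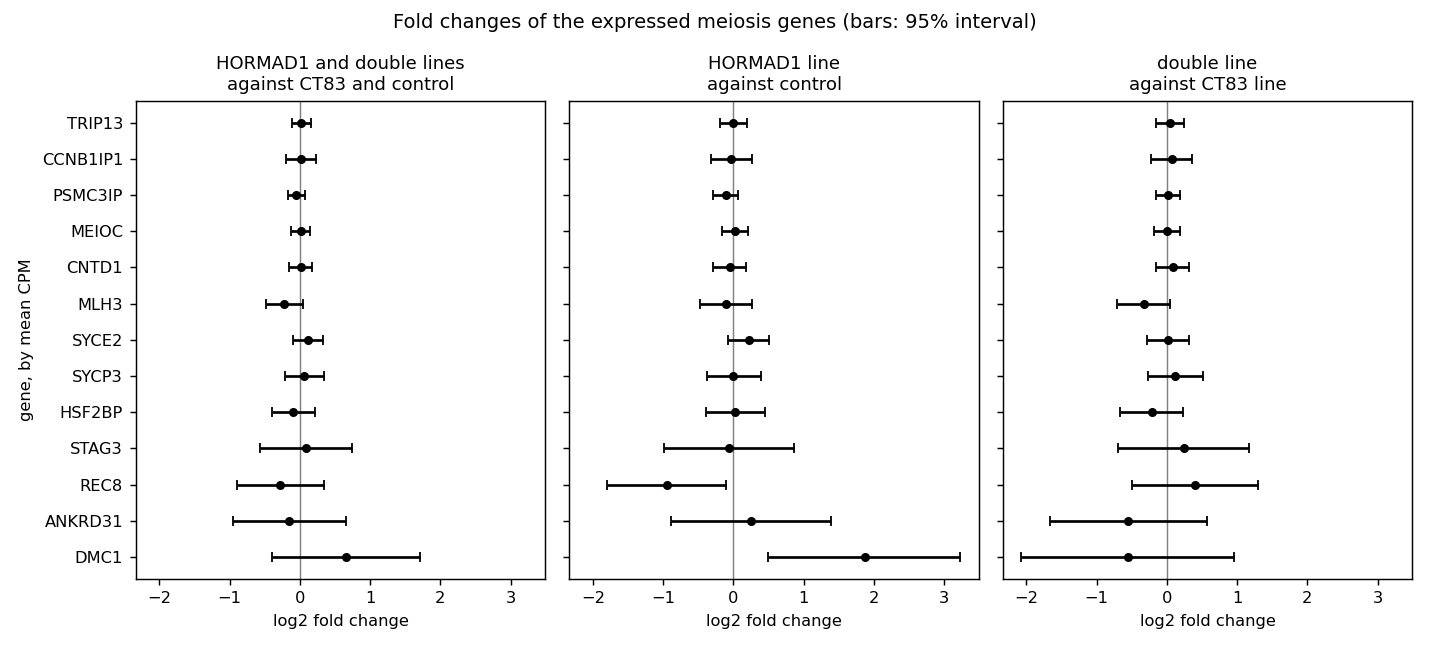
Log2 fold changes (points) with 95% intervals (bars) of the 13 expressed genes, for the HORMAD1 and double lines against the CT83 and control lines, the HORMAD1 line against control, and the double line against the CT83 line. In the first panel all 13 intervals include 0. In the second those of DMC1 (0.5 to 3.23) and REC8 (-1.8 to -0.11) do not, before adjustment over all genes. DMC1 passed the filter partly through the HORMAD1 libraries compared there.

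Considered one background at a time, HORMAD1 without CT83 came with no call either. In the HORMAD1 line against control, edgeR called 0 of 13 genes (0.0064% of all genes called). REC8 averaged 0.694 ± 0.235 CPM in the HORMAD1 line, against 1.34 ± 0.358 CPM in control (SD, n = 3 each), with overlapping libraries (log2 fold change -0.95, SE 0.397, edgeR adjusted p = 1). SYCE2 followed (0.22, SE 0.139, edgeR adjusted p = 1). DMC1 averaged 1.01 ± 0.5 CPM in the HORMAD1 line, against 0.272 ± 0.0856 CPM in control (log2 fold change 1.87, SE 0.639, edgeR adjusted p = 1). DMC1 reached the filter in 2 HORMAD1 libraries, 1 CT83 library and 0 double or control libraries. The values that brought it into the test are therefore the values being compared, and its difference is a description only. Without the 3 libraries whose levels rose with transcript length, its log2 fold change was 1.35 (edgeR adjusted p = 0.958). An unadjusted p under 0.05 was reached by 2 of the 13, DMC1 and REC8, against 1.82% of all genes. Ranges did not overlap for 2 of the 13, DMC1 and PSMC3IP, against 7.56% of all genes. Both counts include DMC1, and nothing is read from them.

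The double and CT83 lines, which both carry CT83, did not hold it at the same level: CT83 averaged 102 ± 15.6 CPM in the double line and 523 ± 175 CPM in the CT83 line (SD, n = 3 each). A difference between them in a meiosis gene therefore cannot be told apart from that gap in CT83, which also enters the interaction given next. In the double line against the CT83 line, edgeR called 0 of 13 genes (0.0064% of all genes called), and 0 reached an unadjusted p under 0.05, against 8.05% of all genes. DMC1 was at 0.344 ± 0.223 CPM in the double line and 0.496 ± 0.387 CPM in the CT83 line (log2 fold change -0.56, SE 0.713), and without CT83 replicate 1 its log2 fold change was 0.29. REC8 was at 0.978 ± 0.0731 and 0.736 ± 0.329 CPM in the same lines (0.4, SE 0.42; SD, n = 3 each). The smallest p-values were those of MLH3 (-0.33, SE 0.176, edgeR adjusted p = 0.585), ANKRD31 (-0.55, SE 0.525, adjusted p = 0.699) and HSF2BP (-0.21, SE 0.208, adjusted p = 0.702), the 1 gene of the 13 whose ranges did not overlap, against 17.9% of all genes. The difference between the double-against-CT83 and the HORMAD1-against-control values was tested as an interaction, which called 0 of 13 genes and 0 of all genes (0%), with 2 of 13, DMC1 and REC8, at an unadjusted p under 0.05 against 4.5% of all genes. Its log2 values were -2.42 for DMC1 (SE 0.965, edgeR adjusted p = 0.841), 1.35 for REC8 (SE 0.579, adjusted p = 0.841) and 0.13 for PSMC3IP (SE 0.117, adjusted p = 0.841). DMC1 passed the filter only through 2 HORMAD1 libraries and 1 CT83 library. Those values enter the interaction and the double line against the CT83 line. The values of DMC1 in both are therefore a description only, and nothing is read from the 2 of 13.

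The remaining comparisons, which share the control libraries with the HORMAD1 line against control, also called none of the 13. For the double line against control, 0.0256% of all genes were called (4 genes) and 0 of 13 had an unadjusted p under 0.05, against 5.56% of all genes. SYCE2 (log2 fold change 0.25, SE 0.14, edgeR adjusted p = 0.9), MLH3 (-0.27, SE 0.175, adjusted p = 0.9) and HSF2BP (-0.3, SE 0.205, adjusted p = 0.905) had the smallest p-values. In the CT83 line against control, 0.0064% of all genes were called (1 gene, CT83 itself), and REC8 alone of the 13 had an unadjusted p under 0.05 (-0.85, SE 0.397, edgeR adjusted p = 0.984), against 2.74% of all genes. SYCE2 (0.23, SE 0.14, adjusted p = 0.984) and ANKRD31 (0.62, SE 0.519, adjusted p = 0.984) followed. Ranges did not overlap for CNTD1, SYCE2 and HSF2BP between the double and control lines, against 15.4% of all genes, and for SYCE2 between the CT83 and control lines, against 10.5%. DESeq2 and limma-voom called 0 of the 13 in each of the 6 comparisons.

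When all genes with any count were tested, without a filter, 30 of the 38 could be fitted among 28220 genes. Of these 30, 0 were called in any of the 6 comparisons, and the smallest edgeR adjusted p among them was 0.776. The genes with the fewest counts gave little to compare, so a lack of calls says little about them. PRDM9, RAD21L1, MEI4, TERB1, HORMAD2 and SYCE3 each had whole lines at 0. Their SE in the HORMAD1 and double lines against the other lines, 1100 to 4560, is no measure of precision. It was obtained from the fold change and the test statistic. CT83, with 20698 counts and whole lines at 0, had an SE of 4900 in the same comparison. MEI4, HORMAD2 and SYCE3 were at 0 in both the HORMAD1 and the control line. The share of all genes called was 0.00354% for the HORMAD1 and double lines against the CT83 and control lines and for the HORMAD1 line against control, 0.0425% for the double line against control, 0.00709% for the interaction and 0% for the other two, so a count of 0 among 30 genes is near the background. Without the 3 libraries whose levels rose with transcript length, the low-count filter was applied again. None of the meiosis genes that passed it was called in any comparison, and those that did not pass were not tested. The share of all 15667 genes called was then 0.0319% for the HORMAD1 and double lines against the CT83 and control lines, 0.0383% for the HORMAD1 line against control, 0.466% for the double line against the CT83 line, 0.083% for the double line against control, 0.76% for the CT83 line against control and 0.14% for the interaction.

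Other meiosis genes were not called either. Of 23 that the files hold beside the 38, 12 passed the filter and 0 were called in any comparison. The nuclear envelope protein SUN1 and the RNA helicase YTHDC2, both used outside meiosis as well, differed by -0.11 (SE 0.0725) and 0.08 (SE 0.0583) on the log2 scale between the HORMAD1 and double lines and the CT83 and control lines. IHO1, the break-forming partner that HORMAD1 recruits in mouse meiosis, had 6 counts in the libraries with the construct and 1 in those without, 4 of them in double replicate 3; it was chosen after its values were seen. Proliferation genes (24 of 24 tested) had 0 calls in each comparison as well, with a median log2 fold change of 0.02 in the same contrast.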

How the data were processed

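RNA was extracted with RNeasy columns and made into libraries with the NEBNext Ultra kit with spiked-in ERCC controls, per the labels' protocols. The authors deposited 1 table of expected counts per library, 61533 entries each; the submitters' processing notes name Trimmomatic 0.39, STAR 2.7.5c, Picard and SAMtools and the builds hg38 and hg19, while which tool counted the reads, and whether by strand, is not given in the sources used here. Rounding to whole numbers, applied before any test, altered 6.75% of values; totals were 9898845 to 14159740. The members and all gene lists were chosen with earlier results of these data known. Entries were named and placed with GENCODE 29 (GRCh38), which held 58356 of them. Genes were filtered with edgeR 4.0.16 (filterByExpr, minimum count 10), leaving 15616, scaled by trimmed mean of M values, and tested in 1 fit over the 4 lines with edgeR's quasi-likelihood test (8 residual degrees of freedom, R 4.3.3), Benjamini-Hochberg adjusted over all genes tested, at 0.05. DESeq2 1.42.0 and limma 3.58.1 (voom) served as alternatives, with other scalings, filters, a replicate block and each library left out. The code was tested on simulated data. FPKM used the summed exon length of each gene. The genes named in each comparison were the 3 members with the smallest p, besides those described by role. Intervals and floors cover counting error or spread between these libraries only, and no molecular identifiers are stated.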

Additional observations from a re-analysis of the deposited data

How the results depend on the processing

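In all 6 comparisons 0 of the meiosis genes tested were called, in the analysis as reported and in the alternatives run (22 or 23 a comparison). Genes that did not pass the filter of a setting were not tested in it. The smallest adjusted p was 0.325 for HORMAD1 and double against CT83 and control, 0.844 for HORMAD1 against control and 0.36 for double against CT83. It was 0.6 for double against control, 0.37 for CT83 against control and 0.61 for the interaction. Among genes named with a log2 fold change, the sign changed with a library left out for DMC1 in double against CT83 (-0.9 to 0.29) and, in HORMAD1 and double against CT83 and control, for TRIP13 (-0.01 to 0.07), MEIOC (-0.03 to 0.03), CCNB1IP1 (-0.07 to 0.08), ANKRD31 (-0.35 to 0.15) and STAG3 (-0.17 to 0.28), and without the 3 libraries named at the end for CCNB1IP1 (-0.02), ANKRD31 (0.12) and STAG3 (-0.17). Silent genes numbered 14 at up to 3 counts, 8 when a count of 0 was required, and 14 to 16 with each library left out; expressed genes numbered 13, and 10 at a mean of 1 CPM. Replicate numbers did not pair the libraries: deviations of same-numbered libraries correlated between -0.35 and 0.35, and with a replicate block 0 meiosis genes were called, with 2 genes of all for double against CT83 and 2 for double against control. Counts over all genes moved by over 1.5 times in places. Double against CT83 gave 1 as reported, 0 without a filter, 3 by DESeq2 and 2 by limma-voom, and double against control gave 4, with 12 without a filter, 2 by limma-voom and 1 at an adjusted p under 0.01. CT83 against control gave 1, and 0 without a filter, with only the groups compared, or at an adjusted p under 0.01. HORMAD1 against control gave 1, with 2 by DESeq2 and 0 with only the groups compared, and the interaction gave 0, with 2 without a filter and 3 by DESeq2. With each library left out in turn these counts ran from 1 to 5 (double against control), 1 to 2 (double against CT83, HORMAD1 against control, and HORMAD1 and double against CT83 and control) and 0 to 1 (CT83 against control). Without the 3 libraries whose levels rose with transcript length they were 5 for HORMAD1 and double against CT83 and control, 6 for HORMAD1 against control, 73 for double against CT83, 13 for double against control, 119 for CT83 against control and 22 for the interaction; the cause was not tested.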

Other observations

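Among the 23 further meiosis genes, 10 were at trace level and MEIKIN was at 0. At an unadjusted p under 0.05 stood SUN1 in the double line against the CT83 line (log2 fold change -0.25, edgeR adjusted p = 0.585), BRME1 in the CT83 line against control (0.63, edgeR adjusted p = 0.984) and C11orf80 in the interaction (-0.46, edgeR adjusted p = 0.841). Each was 1 of 12 tested genes, against 8.05%, 2.74% and 4.5% of all genes in the same comparisons, and a share of 1 in 12 from so few genes is not read as a result. The germ cell RNA helicase DDX4 had 13 counts over all 12 libraries. The summed level of the 24 proliferation genes was 4850 to 4930 CPM in the HORMAD1 line, 4640 to 4840 CPM in the double line, 4630 to 4830 CPM in the CT83 line and 4750 to 4840 CPM in the control line.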
